A study of Mus musculus with 18 samples.

Results

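The genes described are those of translesion DNA synthesis, with the ribonucleotide reductase subunit Rrm2b beside them for dNTP supply. They are the inserter polymerases Polk, Polh and Poli, the deoxycytidyl transferase and scaffold Rev1, the polymerase zeta genes Rev3l and Mad2l2, the recruiting ubiquitin ligase Rad18, and Rrm2b. All probes whose RefSeq accession maps to 1 of these 8 symbols were taken, which gave 11 of the 55681 probes on the array and 8 of the 20660 gene symbols that the probes carry. Polk, Rad18 and Rrm2b have 2 probes each and the other 5 genes have 1. Where a gene has several probes, the brighter one (the highest mean log2 intensity over both channels) stands for it and is called its standing probe.

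Replicative polymerases stall at bulky base adducts such as those left by metabolites of benzo[a]pyrene. In translesion synthesis the ligase Rad18 ubiquitinates the sliding clamp PCNA, an inserter polymerase places a base opposite the lesion, and polymerase zeta, with Rev3l as its catalytic and Mad2l2 as an accessory subunit, extends from it. Polymerase kappa, the product of Polk, is known for copying past the minor groove guanine adduct of benzo[a]pyrene with few errors, and Rrm2b encodes the p53-inducible small subunit of ribonucleotide reductase, which makes deoxyribonucleotides outside S phase.

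Lung RNA of 18 male Muta™Mouse animals, about 12 weeks of age, was measured. The animals carry a transgenic mutation reporter on a BALB/C-DBA/2 background, which vehicle and exposed mice share. By daily gavage over 28 days, 5 vehicle mice received olive oil and the exposed mice received a mixture of benzo[a]pyrene (BaP), benz[a]anthracene, benzo[b]fluoranthene and chrysene in olive oil, at 12.5 (low, 4 mice), 25 (medium, 5 mice) or 50 (high, 4 mice) mg BaP equivalents/kg-bw/day, and lungs were taken 72 h after the last dose. Cy5-labelled RNA of each mouse was set against Cy3-labelled Universal Mouse Reference RNA, pooled from 11 mouse cell lines, on a 2-colour array, with no dye swap. Each value below is a loess-normalized log2 ratio of lung over reference RNA for 1 probe in 1 mouse, so values of different probes are not compared as levels.

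The share of probes well above background in the lung channel ran from 51.5% to 61.1% over the arrays. Mice of all 4 groups were present on each of the 3 slides, whereas the position within a slide went with the dose group, so that the 2 cannot be told apart. All 9 lung epithelium markers, surfactant genes among them, were well above background on all arrays, with a mean log2 ratio over the reference pool between 5.17 and 5.79 in each mouse. The RNA came from whole lung tissue, in which fewer cells of a type and less RNA per cell cannot be told apart.

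Of the 8 genes, Polk was higher than in vehicle mice at each of the 3 doses and Rev1 at the high dose. The other inserters Polh and Poli, both polymerase zeta genes and Rad18 did not pass the test at any dose, and the Rrm2b probes stood at background. A gene was called where limma's Benjamini-Hochberg adjusted p was 0.05 or less over all 55681 probes and the fold change was at least 1.5 (0.585 on the log2 scale). By this rule 1 of the 8 genes was called higher at the low dose, where 0.116% of all 20660 genes were called higher, 1 of 8 at the medium dose, with 0.503% of all genes, and 2 of 8 at the high dose, with 0.736% of all genes. Of the 8 genes, 0 were called lower, where 0.0436%, 0.431% and 0.774% of all genes were, and limma's unadjusted p was under 0.05 for 0 falls at any dose. Over the standing probes of the 7 genes above background, the median log2 fold change was 0.03, 0.09 and 0.10 from the low to the high dose, beside 0.01, 0.02 and 0.02 over all genes.

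**Figure D1:**
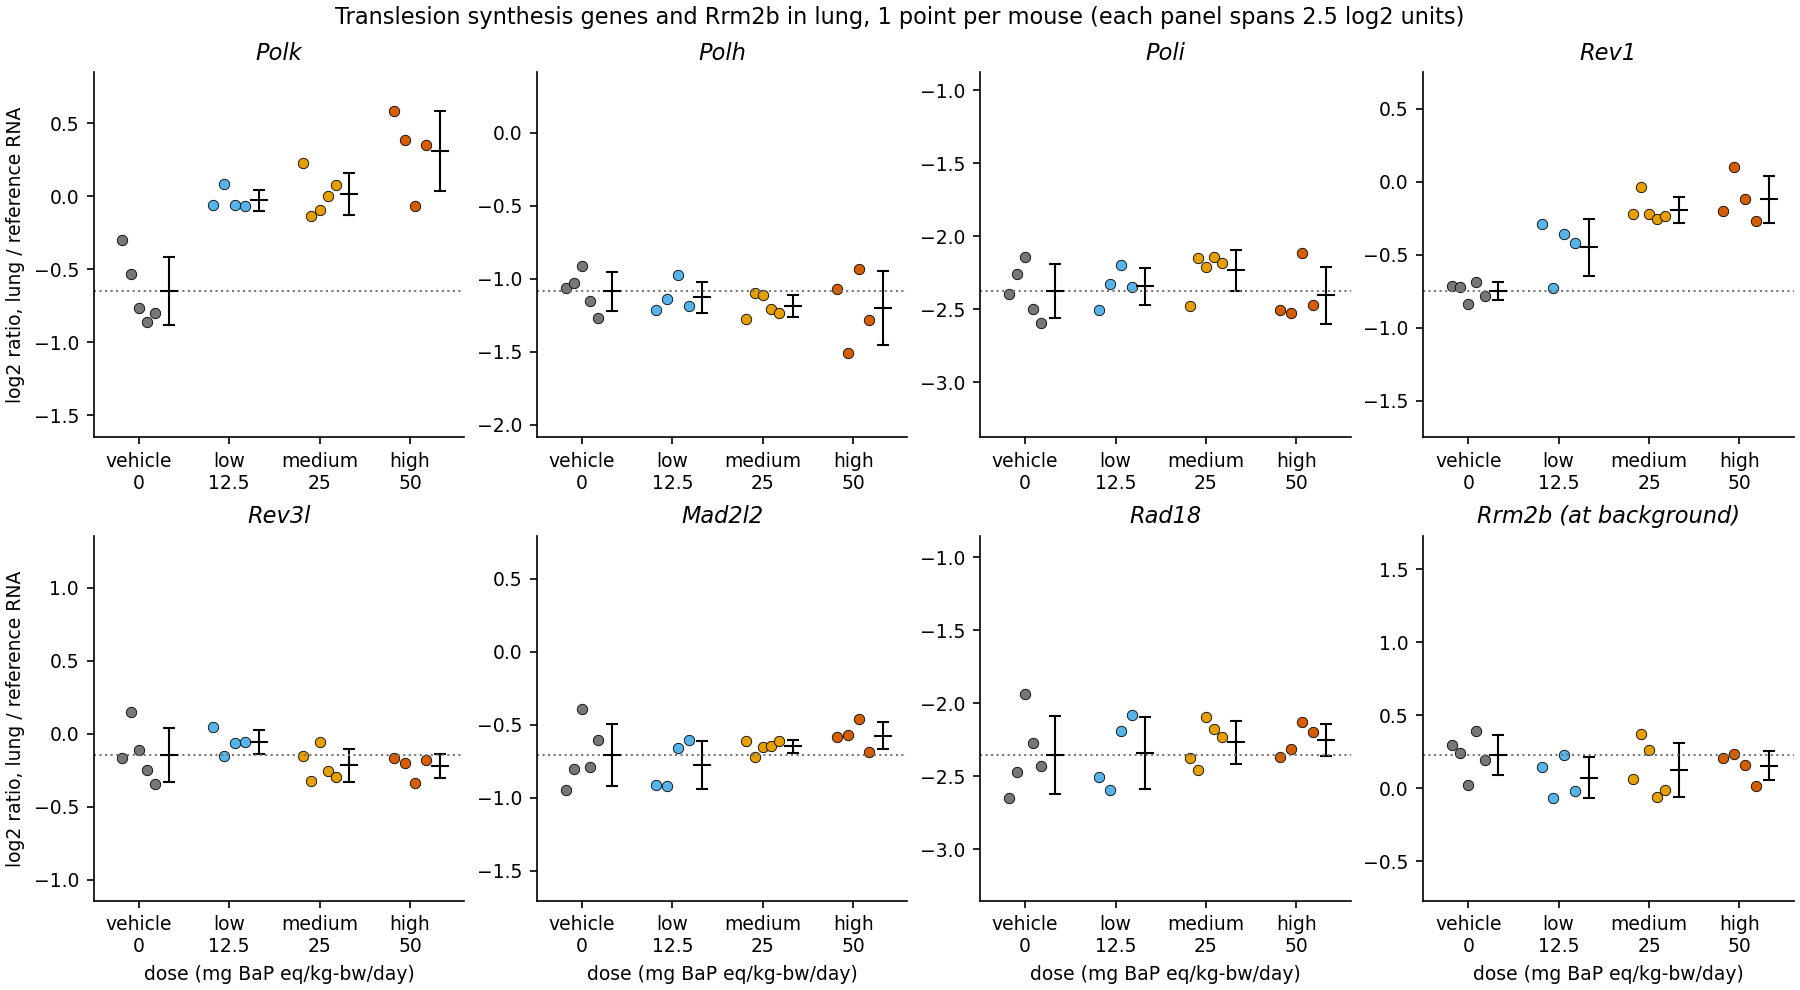
Log2 ratio of lung over reference RNA (y axis) for the standing probe of each gene in each of the 18 mice, by dose group (x axis, mg BaP equivalents/kg-bw/day). Each point is 1 mouse, bars give the group mean ± SD, and the dotted line is the vehicle mean. In the Polk panel all 13 exposed mice lie above all 5 vehicle mice, in the Rev1 panel 12 of 13 do, and in the other panels the groups overlap.

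Sequence before an annotated start of Polk and of Rev1 is shown because these are the 2 genes that rose. RefSeq promoter windows (GRCm38.p6) matched 5 of the 8 genes, with no window for Poli, Rev3l or Rrm2b. The 250 bases before the annotated start are printed 5′ to 3′ on the minus strand, chr13:96542580-96542829 for the outer of the 2 Polk starts and chr1:38129667-38129916 for Rev1. The Polk window lies just outside the annotated gene, which runs to 96542579. The Rev1 window lies within the annotated gene, which runs to 38129921. Capitals mark the AHR core GCGTG and the GC box GGGCGG on either strand.
Polk: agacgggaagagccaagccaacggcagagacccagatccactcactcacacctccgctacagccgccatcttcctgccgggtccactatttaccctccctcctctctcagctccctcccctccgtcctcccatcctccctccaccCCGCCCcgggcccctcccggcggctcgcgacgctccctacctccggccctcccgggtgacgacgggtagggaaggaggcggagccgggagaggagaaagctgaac
Rev1: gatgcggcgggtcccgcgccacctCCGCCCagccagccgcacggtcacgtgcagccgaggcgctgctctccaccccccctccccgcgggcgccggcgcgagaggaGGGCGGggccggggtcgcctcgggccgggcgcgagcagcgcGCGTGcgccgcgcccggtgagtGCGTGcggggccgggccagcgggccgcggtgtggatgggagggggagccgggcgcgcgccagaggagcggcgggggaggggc
Both windows are rich in G and C, at 68% for Polk and 83.6% for Rev1. The Rev1 window holds 2 AHR cores, 2 GC boxes and 1 E-box (CACGTG). The Polk window holds 1 GC box and no AHR core, CCAAT box (CCAAT), TATA box (TATAAA), E-box or p53 half-site. The inner Polk start, which lies within the gene, has 1 p53 half-site and none of the other motifs in the same length of sequence. Over all 32851 windows of this length, 28.2% hold an AHR core, 8.63% hold at least 2, 32.7% hold a GC box, 33.8% a CCAAT box, 12.4% a TATA box, 6.02% an E-box and 7.13% a p53 half-site. These letter matches describe the windows and were not tested against the expression values.

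On its standing probe Polk had the largest change of the 7 genes above background at each dose, whereas its second probe changed by less than Rev1. In the 5 vehicle mice its log2 ratio was -0.30, -0.53, -0.77, -0.86 and -0.80. The 4 low dose mice measured -0.06, 0.08, -0.06 and -0.07. In the 5 medium dose mice it was 0.23, -0.13, -0.09, 0.00 and 0.08. The 4 high dose mice measured 0.58, 0.38, -0.07 and 0.35. Every exposed mouse lay above every vehicle mouse, while the 3 exposed groups overlapped each other and high dose mouse 18 lay among the low and medium dose mice. Before normalization, the Cy5 intensity of the spots ran from 189 to 309 in vehicle, 305 to 447 in low, 320 to 504 in medium and 321 to 673 in high dose mice, so that vehicle and low dose mice overlapped, while Cy3 ran from 264 to 378 over all arrays.

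The log2 fold change of Polk over vehicle was 0.62 ± 0.12 (SE) at the low dose, or 1.54-fold with a 95% interval from 1.29 to 1.83 (limma adjusted p = 0.0374). With the medium dose it was 0.67 ± 0.11, or 1.59-fold (limma adjusted p = 0.00186), and with the high dose 0.96 ± 0.12, or 1.95-fold with an interval from 1.64 to 2.32 (limma adjusted p = 5.93e-05). By size of the rise at the high dose, this probe stood at place 67 of 55681. The mean of the 3 doses lay 0.75 ± 0.10 above vehicle (limma adjusted p = 5.98e-05), and by this mean 0.421% of all genes were called higher. All mice of a dose group lay above all vehicle mice in 1.82% (low), 3.79% (medium) and 6.16% (high) of genes. In 0.774% of genes, as in Polk, all 13 exposed mice lay above all 5 vehicle mice, and the two-sided exact permutation p of 0.000117 is the smallest that 13 against 5 mice can give.

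The low dose already held 64.7% of the high dose change of Polk, and the medium dose 69.3%. The high dose exceeded the low dose by 0.34 (95% interval 0.07 to 0.61) and the medium dose by 0.30 (0.04 to 0.55), and neither difference was called (limma adjusted p = 0.613 and 1). Between doses 0% of genes were called for medium over low and for high over medium, and 0.0823% for high over low. The medium and low doses differed by 0.04 (-0.21 to 0.30). A rise of Polk from dose to dose was not shown with this number of mice. Within slides, the Polk difference from vehicle was 0.42, 0.75 and 0.73 at the low dose, 0.46, 0.77 and 0.88 at the medium dose and 0.90, 0.74 and 1.15 at the high dose on slides 1, 2 and 3.

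The low dose call of Polk is the least firm of these. With all mice kept it was made under 7 of 15 alternative settings, and with 1 mouse left out in 9 of 18 fits, being lost without vehicle mouse 2, 3, 4 or 5, any of the 4 low dose mice, or medium dose mouse 14. Its log2 fold change lay between 0.57 and 0.71 in those fits, with limma adjusted p from 0.0114 to 0.109. The high dose call was made in all 15 and all 18, and the medium dose call in 13 and 18. The 15 settings include the fit without the fold limit, which cannot lose a call. They also include the cilia covariate described below, chosen after seeing the data for its likeness to Polk. Neither is independent support for these calls.

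The second Polk probe, A_55_P2205690, carries the same accession and rose less. It measured -0.16, 0.11, -0.19, -0.28 and -0.13 in vehicle, 0.14, -0.11, 0.09 and -0.12 in low, 0.19, 0.17, 0.07, 0.04 and 0.07 in medium and 0.22, 0.22, 0.11 and 0.28 in high dose mice. The high dose mice lay above all vehicle mice, though vehicle mouse 2 and high dose mouse 18 both rounded to 0.11, while the low and medium dose mice overlapped the vehicle range. Its log2 fold change was 0.13, 0.24 and 0.34 at the 3 doses (limma adjusted p = 0.738, 0.0958 and 0.0192), and it was not called since the high dose change stayed under 1.5-fold. This probe was dimmer, with Cy5 at a median of 2.57 times its local background against 5.05 times for the standing probe A_55_P2000533. The rise on the standing probe exceeded that on the second probe by 0.49 (low), 0.42 (medium) and 0.62 (high) on the log2 scale. The two-sided exact permutation p was 0.0317, 0.0238 and 0.0238, and 0.0634 each after Benjamini-Hochberg adjustment over 6 such comparisons of probe pairs. With the mean of both probes in place of the standing probe, Polk changed by 0.38, 0.45 and 0.65 and was called at the high dose only.

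**Figure D2:**
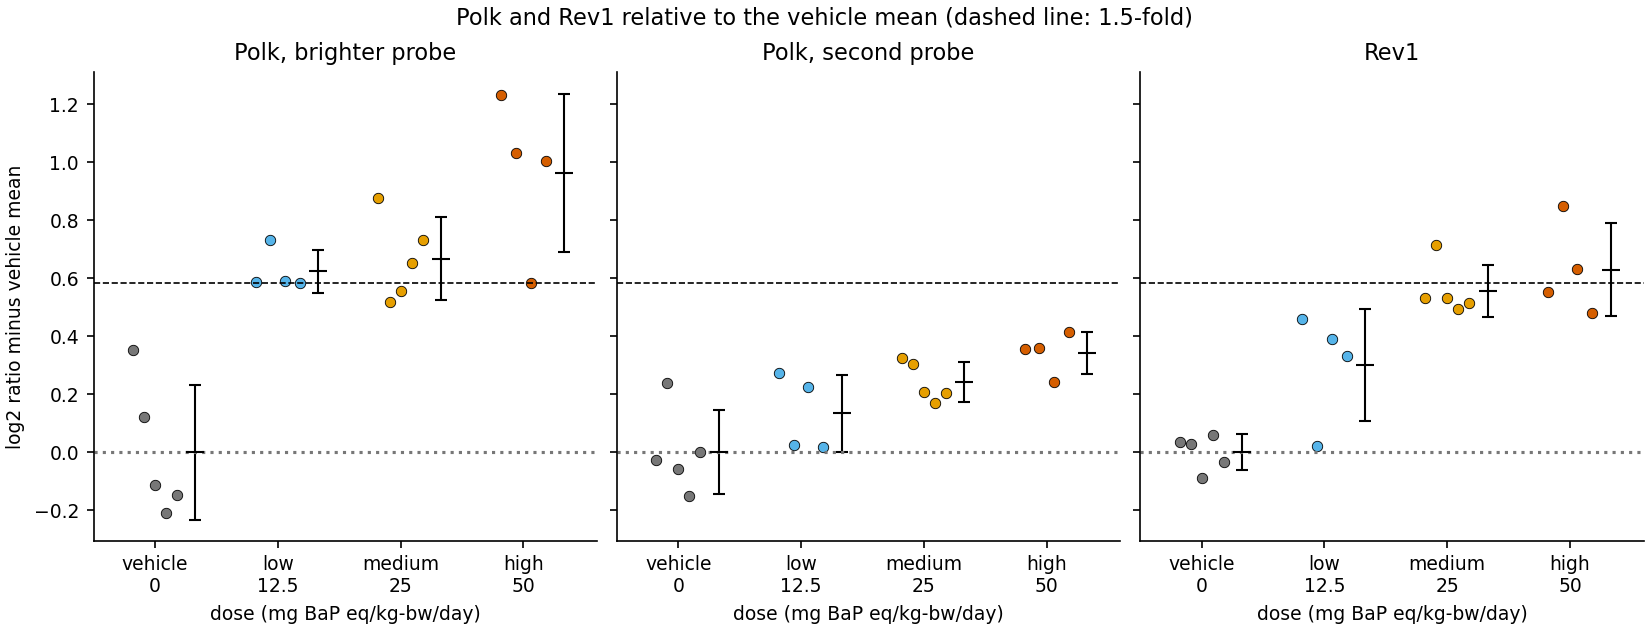
Log2 ratio minus the vehicle mean (y axis) for the standing and the second probe of Polk and for Rev1, by dose group (x axis, mg BaP equivalents/kg-bw/day). Points are mice, bars are the mean ± SD and the dashed line is 1.5-fold. The high dose means stand at 0.96, 0.34 and 0.63.

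Polh, which encodes polymerase eta, the inserter known for bypass of ultraviolet photoproducts, did not pass the test. Its log2 ratio ranged from -1.27 to -0.91 in vehicle, -1.21 to -0.97 in low, -1.27 to -1.10 in medium and -1.51 to -0.93 in high dose mice. The groups overlapped, and the log2 fold changes were -0.04, -0.10 and -0.11 (limma adjusted p = 0.96, 0.707 and 0.672). The 95% intervals ended at 0.17 or lower on the upper side, so a rise as large as that of the standing Polk probe lies outside them. The low dose rise of the second Polk probe, 0.13, lies inside the low dose interval of Polh. Polh was also the dimmest of the genes that were measured, with Cy5 at 1.83 times local background.

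Poli, which encodes polymerase iota, a close relative of polymerase eta, ranged from -2.60 to -2.14 in vehicle, -2.51 to -2.19 in low, -2.48 to -2.14 in medium and -2.53 to -2.12 in high dose mice. Its log2 fold changes were 0.03, 0.14 and -0.03 with 95% intervals that ended at 0.35 or lower (limma adjusted p = 0.972, 0.557 and 0.946). All 18 values lay well below 0, so the reference pool of cell lines gave more signal than lung. Polh and Poli varied together within groups. Over the 18 mice, the deviations of both genes from their group means had a Pearson r of 0.774 and a Spearman rho of 0.816, and r was 0.752 without the 2 mice farthest out, given as a description without a test.

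Rev1, which inserts cytosine opposite damaged bases and gathers the other inserters and polymerase zeta, rose on its 1 probe, with an SD within groups of 0.06 in vehicle, 0.19 in low, 0.09 in medium and 0.16 in high dose mice. The vehicle mice measured -0.72, -0.72, -0.84, -0.69 and -0.79. The low dose mice measured -0.29, -0.73, -0.36 and -0.42, and the medium dose mice -0.22, -0.04, -0.22, -0.26 and -0.24. In the high dose mice the log2 ratio was -0.20, 0.10, -0.12 and -0.27. Low dose mouse 7 lay inside the vehicle range and the other 12 exposed mice lay above it. The high and medium dose mice overlapped.

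The log2 fold change of Rev1 was 0.30 ± 0.09 (SE) at the low dose (limma adjusted p = 0.275). It was 0.56 ± 0.09 at the medium dose, or 1.47-fold (limma adjusted p = 0.000654), which passed the limit on p but not that on fold, and 0.63 ± 0.09 at the high dose, or 1.55-fold with a 95% interval from 1.36 to 1.76 (limma adjusted p = 0.000237). The mean of the 3 doses lay 0.50 ± 0.07 above vehicle, or 1.41-fold (limma adjusted p = 0.00021). The low dose held 47.9% of the high dose change and the medium dose 88.6%. The medium dose exceeded the low dose by 0.26 (95% interval 0.07 to 0.44) and the high dose exceeded the medium dose by 0.07 (-0.12 to 0.26), and neither difference was called (limma adjusted p = 0.969 and 1). Leaving out high dose mouse 17 lowered the high dose change to 0.55, under 1.5-fold, with the limma adjusted p at 0.0019. Within slides 1, 2 and 3 the high dose difference was 0.67, 0.65 and 0.51.

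Polk and Rev1 both rose with exposure and did not track each other among mice of the same group. The deviations from the group means had a Pearson r of -0.174 and a Spearman rho of -0.205 over 18 mice, without a test. High dose mouse 18, which had the lowest Polk ratio of its group, had a Rev1 ratio of -0.12, second highest there.

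Polymerase zeta did not pass the test in either gene, and both probes were bright, at 30.3 times local background for Rev3l and 27.6 times for Mad2l2. Rev3l ranged from -0.34 to 0.15 in vehicle, -0.15 to 0.04 in low, -0.32 to -0.06 in medium and -0.34 to -0.16 in high dose mice. Its log2 fold changes were 0.09, -0.07 and -0.08 (limma adjusted p = 0.876, 0.781 and 0.772), with 95% intervals within -0.26 to 0.27. Mad2l2, which encodes the Rev7 subunit, ranged from -0.95 to -0.39 in vehicle, -0.92 to -0.60 in low, -0.72 to -0.61 in medium and -0.68 to -0.46 in high dose mice. Its log2 fold changes were -0.07, 0.06 and 0.13 (limma adjusted p = 0.922, 0.859 and 0.596), within -0.27 to 0.33. The interval of neither gene reached 1.5-fold at any dose.

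Rad18, the ligase that marks PCNA at stalled forks, was measured by 2 probes and called on neither. The standing probe ranged from -2.65 to -1.94 in vehicle, -2.59 to -2.08 in low, -2.46 to -2.09 in medium and -2.37 to -2.13 in high dose mice, and its log2 fold changes were 0.01, 0.09 and 0.10 (limma adjusted p of 0.793 or higher). The second probe gave 0.10, 0.25 and 0.18 (limma adjusted p = 0.836, 0.0993 and 0.315). On the second probe 4 of 5 medium dose mice lay above all vehicle mice, against 2 of 4 at the high dose, and on the standing probe 0 did at any dose. Rad18 and Mad2l2 varied together within groups, with a Pearson r of 0.807 and a Spearman rho of 0.746 between deviations over 18 mice, and an r of 0.632 without the 2 mice farthest out. No test was made of that relation. Vehicle mouse 3 had the highest value of its group for Polh (-0.91), Poli (-2.14), Mad2l2 (-0.39) and Rad18 (-1.94) and the lowest for Rev1 (-0.84). High dose mouse 18 likewise had the highest value of its group for Polh (-0.93), Poli (-2.12), Mad2l2 (-0.46) and Rad18 (-2.13). It had the lowest for Polk and for Rev3l (-0.34).

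Rrm2b gave no usable level. Its standing probe was well above background in Cy5 on 2 of 18 arrays, those of low dose mouse 10 and high dose mouse 17, and in Cy3 on 0 of 18. Its second probe was well above background on none in either channel. Cy5 stood at a median of 1.30 and 1.11 times local background. The log2 ratios ran from -0.07 to 0.39 on the standing probe and from -0.29 to 0.28 on the second. These are ratios of signals near background, so no fold change is given, and a change of Rrm2b was not detectable on these arrays.

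**Figure D3:**
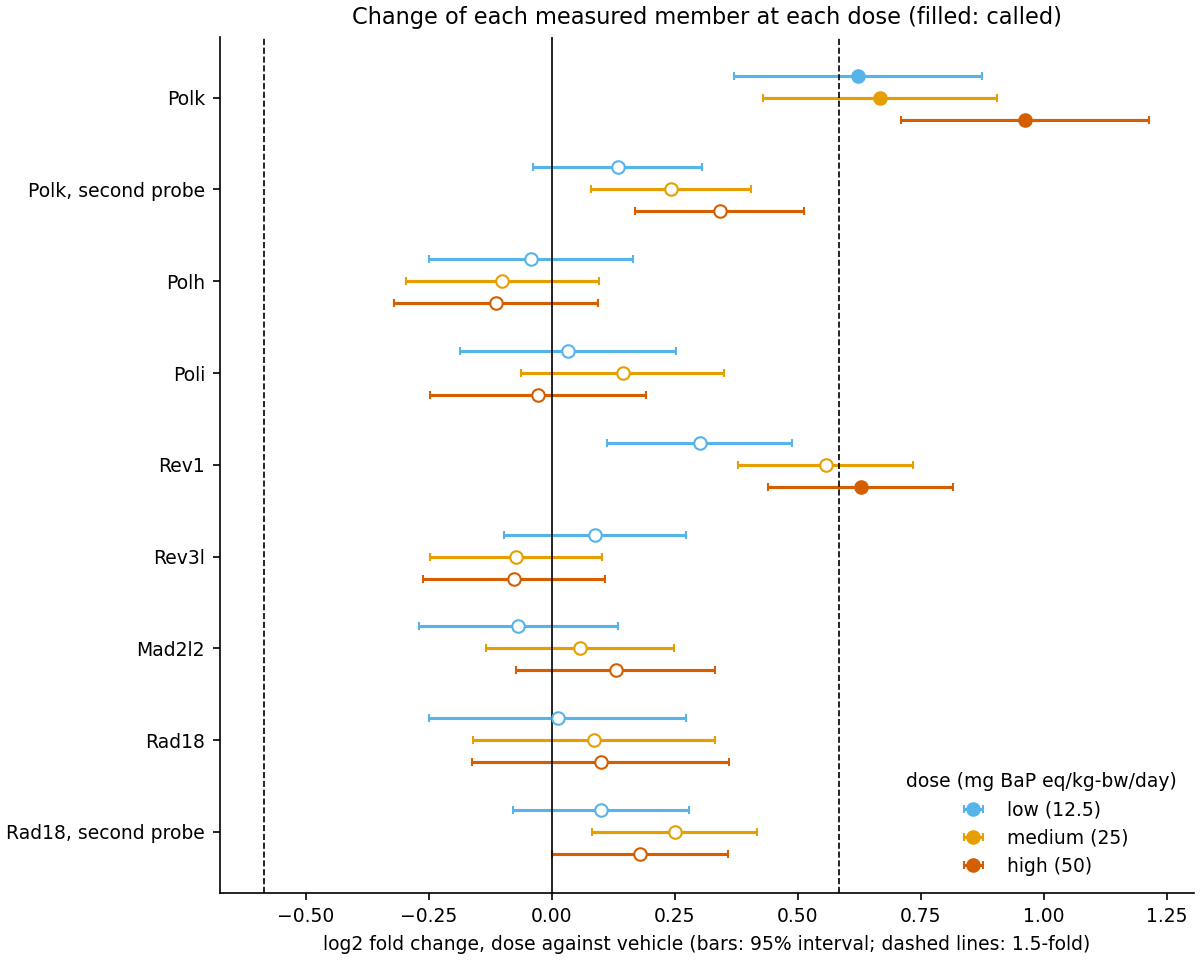
Log2 fold change against vehicle (x axis) for the 9 probes of the 7 genes above background (y axis) at the low, medium and high dose. Bars are 95% intervals from limma, filled points were called, and dashed lines mark 1.5-fold. Polk at all 3 doses and Rev1 at the high dose are filled.

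The other genes of lesion tolerance and dNTP supply were taken from lists of 20 and 16 genes. By the call rule 0 of the genes on either list were called at any dose, beside 0.16%, 0.934% and 1.51% of all genes called in either direction at the 3 doses in turn. Limma's unadjusted p was under 0.05 for 2, 5 and 7 lesion tolerance genes that were higher and 0, 1 and 2 that were lower, and for 2, 4 and 4 dNTP supply genes that were higher and 0, 0 and 1 that were lower. Over all genes the same limit was passed by 5.14%, 11.7% and 12.1% that were higher and by 4.12%, 7.93% and 7.9% that were lower. With the limit on adjusted p alone and no limit on fold, 0, 4 and 7 of them passed at the 3 doses, and 0.247%, 4.82% and 5.61% of all genes did. The median log2 fold change at the high dose was 0.07 for lesion tolerance and 0.11 for dNTP supply, beside 0.02 over all genes.

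Pcna, the sliding clamp on which the inserters assemble, changed by 0.15 ± 0.08 at the high dose (limma adjusted p = 0.38). Ube2a and Ube2b encode the conjugating enzymes that work with Rad18. Ube2a changed by -0.02 at the high dose (limma adjusted p = 0.944). Ube2b measured 0.87, 1.02, 0.57, 0.97 and 0.64 in vehicle mice and 0.53, 0.34, 0.27 and 0.27 in high dose mice. The highest high dose value, 0.53, lay close under the lowest vehicle value, 0.57. The share of all genes with high dose mice below all vehicle mice is not given. Its log2 fold change was -0.12, -0.36 and -0.46 at the 3 doses (limma adjusted p = 0.834, 0.0463 and 0.0123), so that Ube2b fell at the medium and high dose by the limit on p, by less than 1.5-fold. Its 2 other probes gave -0.36 and -0.49 at the high dose (limma adjusted p = 0.0774 and 0.0104).

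Rrm1 and Rrm2 encode the large subunit and the S phase small subunit of ribonucleotide reductase, the partners and counterpart of Rrm2b. Rrm1 measured -2.23, -2.41, -2.10, -2.51 and -2.53 in vehicle mice and -1.70, -1.66, -1.99 and -1.74 in high dose mice. These high dose mice all lay above the vehicle range, as in 6.16% of all genes. Its log2 fold change was 0.18, 0.30 and 0.58 at the 3 doses (limma adjusted p = 0.805, 0.262 and 0.018), the last just under the limit of 0.585. Rrm2 changed by 0.30, 0.53 and 0.49 (limma adjusted p = 0.594, 0.0228 and 0.0445). Vehicle mouse 3 lay at -3.53, above all 4 high dose mice, which ran from -3.68 to -3.60, while the other 4 vehicle mice were at -4.19 or lower. Without that mouse, Rrm2 was called with a change of 0.68 at the medium and of 0.64 at the high dose, and Rrm1 changed by 0.65 at the high dose and was called. Of the 18 fits with 1 mouse left out, no other called Rrm2. Rrm1 was also called at the high dose without vehicle mouse 1 or high dose mouse 18, and in no other of these fits.

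Tk1, the cytosolic thymidine kinase, named after its values were seen, changed by -0.16, -0.06 and -0.15 (limma adjusted p = 0.692, 0.852 and 0.462). Other genes of these lists that passed the limit on p at the high dose, named after their values were seen, were Tk2, the mitochondrial thymidine kinase (0.41, limma adjusted p = 0.00733), Rpa1 and Rpa2, subunits of the protein that coats single-stranded DNA (0.32 and 0.37, limma adjusted p = 0.0146 and 0.0159), and Zranb3, a fork remodelling translocase that binds modified PCNA (0.48, limma adjusted p = 0.0222). Of the 10 proliferation markers, 0 were called at any dose, and limma's unadjusted p was under 0.05 for 0, 4 and 1 of them as the dose rose, all higher, beside the shares of all genes just given. The last was the helicase subunit Mcm2 (0.53, limma adjusted p = 0.0148), under the limit on fold. Of the 10 proliferation markers 8 were well above background on all arrays and 2 on none.

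**Figure D4:**
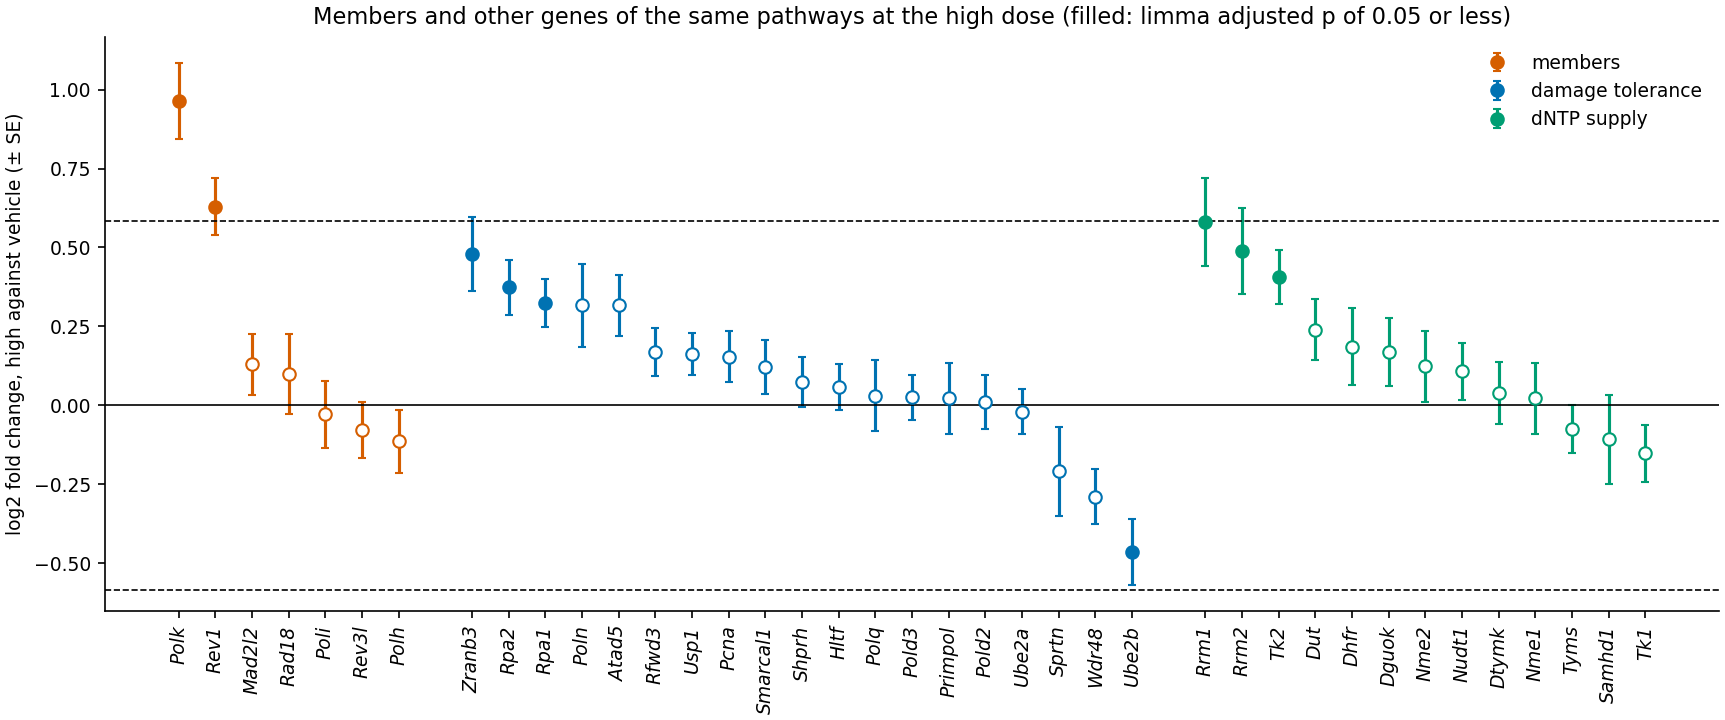
Log2 fold change at the high dose against vehicle ± SE (y axis) for the 7 genes above background and for lesion tolerance and dNTP supply genes above background on at least 1 array (x axis). Filled points have a limma adjusted p of 0.05 or less and dashed lines mark 1.5-fold. Polk and Rev1 lie beyond the upper dashed line, Rrm1 lies just under it, and no gene drawn passes the lower line.

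The values of Polk and Rev1 stand beside those of genes known to respond to p53 and to the aryl hydrocarbon receptor (AHR). By the same rule 7, 10 and 11 of 15 p53 targets were called higher as the dose rose. Cdkn1a, the cell cycle inhibitor p21, rose by 1.39, 2.09 and 2.47, and Mdm2, the ligase that limits p53, changed by 0.40, 0.61 and 0.71 (limma adjusted p = 0.0465, 0.000108 and 2.07e-05). On both of its probes Polk changed by less than Cdkn1a at each dose. The standing probe of Polk was above Mdm2 and the second probe under it at each dose, and these differences were not tested. Ccng1 rose by 0.89, 1.31 and 1.68 and Gdf15 by 2.05, 2.78 and 2.88. Of 6 AHR targets, Cyp1b1 and Ahrr were called at each dose, with Cyp1b1, a monooxygenase that activates polycyclic hydrocarbons, at 0.85, 1.15 and 1.58 and Ahrr, the receptor's repressor, at 0.69, 0.95 and 1.45. The Ahrr probe was well above background on 1 of 5 vehicle arrays, where its Cy5 intensity ran from 84 to 106, and on all arrays of the exposed mice, so that its fold changes are measured against a group near background. Cyp1a1, well above background on 15 of 18 arrays, changed by 1.07 at the high dose (limma adjusted p = 0.0773) and Tiparp by 0.25 (limma adjusted p = 0.132). All of these comparisons share the same 5 vehicle mice.

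Among 13435 other genes above background, those whose log2 ratio over the 18 arrays was most like that of Polk were Ddit4l (Pearson r = 0.904), Zfp945 (0.897), Mdm2 (0.892), Ppia (0.891) and Inka2 (0.887). Over deviations from the group means, r was 0.697, 0.532, 0.45, 0.588 and 0.398 in the same order. Ddit4l and Inka2 were called at the high dose, with rises of 1.14 and 1.42, whereas Zfp945 and Ppia changed by 0.43 and 0.30, under the limit on fold. The arrays share a reference and fall into dose groups, and no test was made. For Rrm2b the probe signals most like it were those of Scd2, Mcl1, Vegfa, Robo2 and Unc45b (r from 0.76 to 0.807, and from 0.711 to 0.838 over deviations), which rests on values at background.

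Within groups, Polk moved with another set of genes. By deviations from the group means, genes most like it included Ppil6, Spata17, Ffar4 and Efcab5 (r from 0.859 to 0.875). Ppil6, Spata17 and Efcab5 are known from ciliated cells, and a list of 10 motile cilia genes was therefore written after these values were seen, of which 9 have a probe. The mean log2 ratio of the 9 ran from 3.29 to 4.00 in vehicle, 3.57 to 3.99 in low, 3.44 to 4.01 in medium and 3.37 to 3.88 in high dose mice. By limma 0 of the 9 were called at any dose, and 0 had an unadjusted p under 0.05. Deviations of Polk and of this mean had a Pearson r of 0.754 and a Spearman rho of 0.771 over 18 mice, which restates the likeness that the list was written from and is no further evidence of it. The same mouse had the lowest cilia mean and the lowest Polk ratio in the vehicle group (mouse 4) and the high dose group (mouse 18), and different mice did in the low and medium dose groups. With the mean as a covariate, the log2 fold change of Polk was 0.57, 0.71 and 0.99 in dose order, the first of them under 1.5-fold. No p is given for these values, because a covariate chosen for its likeness to Polk narrows the spread of Polk.

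**Figure D5:**
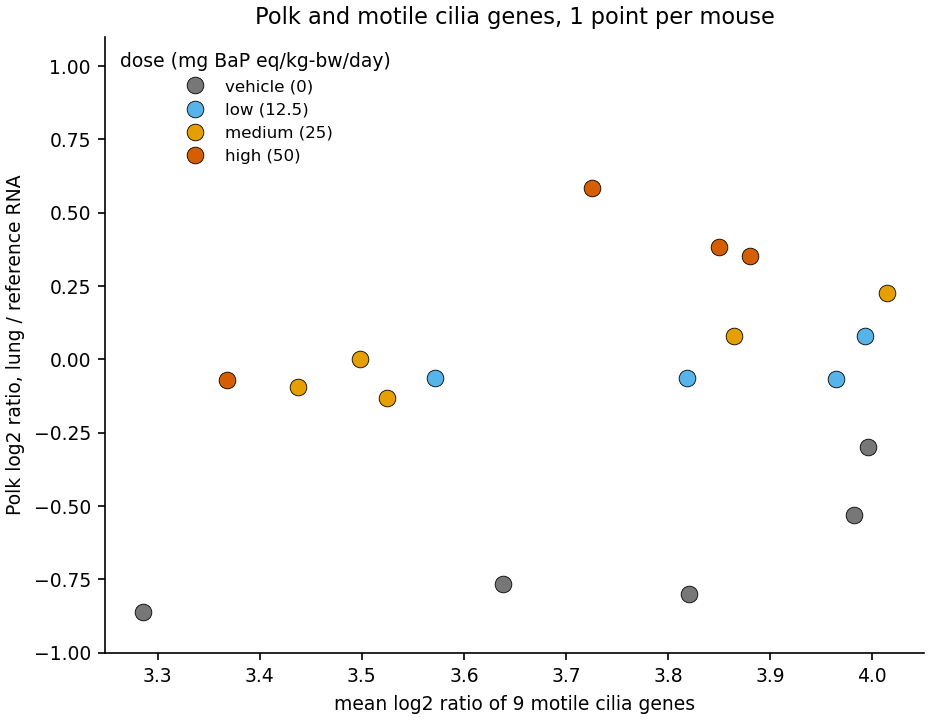
Log2 ratio of Polk (y axis) against the mean log2 ratio of 9 motile cilia genes (x axis), 1 point per mouse, coloured by dose. The cilia means of the 4 groups overlap between 3.57 and 3.88, and all 13 exposed mice lie above all 5 vehicle mice in Polk.

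Calls among markers of other cell types stand beside 0.16%, 0.934% and 1.51% of all genes called in either direction at the low, medium and high dose. Of 9 T and NK cell markers, Gzma was called lower at the high dose (-2.25, limma adjusted p = 0.00208) and none at the other doses, and the summed Cy5 intensity of the 9 ran from 6380 to 13900 in vehicle, 4640 to 10200 in low, 5350 to 10400 in medium and 4580 to 6740 in high dose mice. Of 5 B cell markers, Cd79b and Ms4a1 were called higher at the medium dose and none at the others, with sums from 3960 to 8180, 6780 to 13600, 6830 to 14300 and 7800 to 11300. Of 5 endothelial markers, Pecam1 was called higher at the medium and high dose. It was the only 1 of the 5 with a positive change there, and their median log2 fold change was -0.19 (medium) and -0.11 (high). Kdr was lower at the high dose by the limit on p, by less than 1.5-fold (-0.38, limma adjusted p = 0.0168). Of the 9 lung epithelium, 5 macrophage, 4 neutrophil and 5 liver markers 0 were called at any dose. At the high dose limma's unadjusted p was under 0.05 for 3 epithelial markers that were lower, Ager (-0.30), Aqp5 (-0.23) and Hopx (-0.29), for the macrophage marker Marco (1.25), for the neutrophil markers S100a8 (0.79) and Csf3r (-0.39), and for 0 liver markers. At the same dose and limit 6 of 9 T and NK cell markers were lower and 1 was higher. Among the 5 B cell markers 3 were higher, as at the low and medium dose. Among the 5 endothelial markers 1 was higher and 1 lower. Over all genes 12.1% were higher and 7.9% lower at this limit at the high dose. Of the T and NK, B and endothelial markers, 8 of 9, 5 of 5 and 5 of 5 were well above background on all arrays. Of the 5 liver markers 1 was well above background on all arrays and 2 on none, so their lack of calls says little. Their part in the values of Polk and Rev1 was not tested.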

How the data were processed

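The 18 arrays were scanned and read by the submitters with Feature Extraction 11.0.1.1. Per the file headers, the deposited scanner files hold Cy5 and Cy3 median intensity and local background per spot and a log10 ratio that the software made after its own background and dye correction. A second table deposited by the authors holds log2 ratios, which correlated with the ratios used here at r of 0.9955 to 0.9982 per array. From the median intensities, without background subtraction, log2(Cy5/Cy3) was normalized by loess within each array (R 4.3.3, limma 3.58.1). Control and outlier spots (215 to 307 per array) had weight 0, and spots of a probe were averaged. Group means over all 18 arrays were fitted with limma, with 7 contrasts, each adjusted over 55681 probes. The methods name MAANOVA, for which limma stood in. The methods state 5 mice per group and 18 arrays were analysed here. Array number limits the precision. RefSeq names were matched for 27235 probes, and 86 probes lacked a value on some array. Named genes were the 8 genes by their standing probe, Pcna, Ube2a, Ube2b, Rrm1, Rrm2, genes of the lists called at any dose, 4 p53 and 4 AHR targets, and the 5 genes most like Polk and Rrm2b. Other names were chosen after their values were seen. Of the dNTP supply list, 1 gene is kept in the counts and is neither named nor drawn here. The 8 genes and the lists were chosen with earlier results of these data known. On simulated data for high dose against vehicle, with 200 changed of 55595 probes, 97% of log2 changes of 1 and 100% of log2 changes of 2 were recovered. Changes under 1, such as those of Polk and Rev1, were not simulated, so no recovery rate is given for them. Alternatives were other background corrections, normalizations, filters, weights, probe rules, a slide block and each mouse left out.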

Additional observations from a re-analysis of the deposited data

Results flagged for a closer look

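In 4 of 32 sets of 1 gene in 1 group, a mouse stood farther from the others than Dixon's 95% critical value allows, where chance gives about 1 in 20, or 1.6 of 32. The Polk ratio of low dose mouse 7 was 0.0816 and the next mouse of its group was at -0.0622. Poli was at -2.4771 in medium dose mouse 11, with the nearest mouse at -2.2121, and at -2.1173 in high dose mouse 18, with the nearest at -2.4739. Rev1 was at -0.0359 in medium dose mouse 12, with the nearest at -0.2201. None of these mice turned a call of Polk at the medium or high dose or of Rev1 at the high dose when left out, while leaving out low dose mouse 7 ended the low dose call of Polk.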

How the results depend on the processing

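With all mice kept, Polk rose at the high dose by 0.65 to 1.21 on the log2 scale and was called in all 15 alternative settings, and Rev1 by 0.58 to 0.88 in 13. Among these settings, the fit without the fold limit cannot lose a call, and the cilia covariate was chosen after seeing the data. The low dose call, 1 gene (Polk), went to 0 with the scanner log ratio (0.80, adjusted p = 0.117), median centring (0.64, adjusted p = 1), scale normalization (0.61), only the groups compared (0.62), array weights (0.59), and, under 1.5-fold, with Cy5 alone (0.56), the cilia covariate, chosen after seeing the data for its likeness to Polk (0.57), and a mean over a gene's probes (0.38). At the medium dose the count of 1 became 2, adding Rev1, with the scanner log ratio and without the fold limit, and 0 with median centring and the mean of all probes. At the high dose the count of 2 became 1, losing Rev1, with median centring and with Cy5 alone. For the mean of the 3 doses the count of 1 became 2 with the scanner log ratio and without the fold limit, and 0 with the mean of all probes. With 1 mouse left out, the counts ran from 0 to 1 at the low dose, 1 to 1 at the medium and 1 to 2 at the high dose. The lesion tolerance and dNTP supply genes called at the high dose, 0 in the report, were 3 with the scanner log ratio, 1 (Rrm1) each with the authors' table, Cy5 alone, array weights and the cilia covariate, 7 without the fold limit and 0 to 2 with 1 mouse left out. At the medium dose they were 4 without the fold limit and 0 to 1 with 1 mouse left out. Changes near 0 that were not called changed sign. With median centring Mad2l2 was at 0.0582 at the low dose, Rev3l at 0.0745 with the medium and 0.1516 with the high dose and Poli at 0.133 at the high dose. Poli was at 0.0075 with the scanner log ratio and 0.0811 with Cy5 alone at the high dose, Polh at 0.0215 with normexp at the low dose, and Rad18 at -0.0045 with the authors' table at the low dose and at -0.0032 and -0.0341 with scale normalization at the medium and high dose. With 1 mouse left out the low dose change ran from -0.0931 to 0.0017 for Polh, -0.0223 to 0.092 for Poli, -0.1276 to 0.0119 for Mad2l2 and -0.0754 to 0.1158 for Rad18, the medium dose change of Mad2l2 from -0.0026 to 0.1369, and the high dose change of Poli from -0.1238 to 0.0315. The cause of these differences was not tested. With slide as a block Polk changed by 0.59, 0.67 and 0.93 and the same genes were called. No paired analysis was possible because the groups share no mouse numbers. Signal over background limits Rrm2b and, less so, Polh.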
